A study of Homo sapiens with 9 samples.

Results

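The genes described here are 10 genes of the unfolded protein response that lie outside its ATF4 arm: XBP1, ERN1, ATF6, ATF6B, HERPUD1, SEL1L, PDIA4, EDEM1, SDF2L1 and CRELD2. They were chosen by symbol as genes of the IRE1-XBP1 and ATF6 branches, which can tell stress of the endoplasmic reticulum (ER) from amino acid stress. The rule used no measured value, but earlier results of these data were known when the genes were chosen. All 10 were found among the 57820 named genes of the count table, and all 10 passed the filter on low counts in each comparison. RNA-seq was measured in 9 libraries of MOLM13, an established acute myeloid leukemia line with a rearranged KMT2A gene and FLT3 activated by an internal duplication. The 3 groups of 3 biological replicates were CTRL (a non-targeting sgRNA, genotype wild type), RBM5 KO (CRISPR/Cas9 targeting with RBM5-sg1) and RBM5 OE (RBM5 cDNA delivered in the lentiviral RBM5-P2A-Venus vector). RBM5 is an RNA-binding splicing regulator, and the study compared its loss and its gain in leukemia cells. No clone is named for RBM5 KO, and CTRL carried an sgRNA rather than an empty cDNA vector, so the vector and the cDNA cannot be told apart in RBM5 OE. All cells were grown in RPMI medium with fetal bovine serum, and no agent that stresses the ER is named for any group.

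The unfolded protein response is the program by which cells adjust the ER to its load of unfolded protein. Its IRE1 arm (IRE1 is encoded by ERN1) cuts a short intron out of XBP1 mRNA, and the spliced mRNA encodes an active transcription factor. In its ATF6 arm, ATF6 and its paralog ATF6B travel to the Golgi, are cleaved there and release a transcription factor that acts with NF-Y on ER stress elements in the promoters of chaperone genes. In its PERK arm, the kinase encoded by EIF2AK3 phosphorylates eIF2 alpha and so raises the translation of ATF4. ATF4 is also reached by the kinase GCN2 (EIF2AK4) on amino acid shortage without the ER, and this wider pathway is the integrated stress response. HSPA5, which encodes the ER chaperone BiP, is the classical output of the ATF6 arm, while DDIT3 (CHOP) and PPP1R15A (GADD34) lie downstream of ATF4.

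The total was 25522952 to 27871988 expected counts per library. The CTRL libraries had 117 ± 4.84 CPM (counts scaled to a common library size, mean ± SD, n = 3) of RBM5 itself, the RBM5 KO libraries 74.6 ± 4.49 and the RBM5 OE libraries 403 ± 20.3, and every library lay on its labelled side of CTRL. CTRL replicate 3 and RBM5 KO replicate 1 stood apart. The chi-square per degree of freedom over all genes was 16.8 and 22.8 between CTRL replicate 3 and its group against 9.19 for the remaining pair. For RBM5 KO replicate 1 it was 40.9 and 34.9 against 10.0. The 7 markers of the line (CD33, PTPRC, SPI1, CSF1R, LYZ, MPO and FLT3) were above 0 in all libraries, with a summed TPM of 1816 to 1974 in CTRL, 2481 to 2798 in RBM5 KO and 1259 to 1307 in RBM5 OE. They did not move as one: LYZ rose in RBM5 KO (log2 fold change 0.76) and fell in RBM5 OE (−1.29), FLT3 fell in RBM5 KO (−0.60), and in RBM5 OE CD33 fell (−0.33) while PTPRC and SPI1 rose (0.65 and 0.19). Of 10 plasma and B cell markers, a lineage for which XBP1 is known, 2 to 5 per library were at 0, TNFRSF17 was at 0 in all, and SDC1 and MZB1 did not pass 0.39 TPM, the abundance scaled for transcript length. Their summed TPM was 114 to 145 in CTRL, 109 to 124 in RBM5 KO and 234 to 247 in RBM5 OE, nearly all of it IGKC. The summed TPM of 9 eosinophil and basophil markers was 973 to 1167 in CTRL, 1294 to 1724 in RBM5 KO and 694 to 762 in RBM5 OE. Of the 5 tested, EPX, PRG2 and GATA2 rose in RBM5 KO (log2 fold changes 2.35, 1.87 and 1.22) and RNASE2 and RNASE3 were not called (0.13 and 0.0074). In RBM5 OE RNASE2, RNASE3 and GATA2 fell (−0.87, −0.45 and −0.46) while EPX rose (0.74). The part of these shifts in the results was not tested, and in bulk libraries fewer cells of a type and less RNA per cell cannot be told apart.

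The sequences through which the branches act were read first, since 4 of the 10 genes carry a complete element in the 300 bases around a start site. ERSE, the ER stress element, was searched as CCAAT and CCACG with 9 bases between, and ERSE-II as ATTGG and CCACG with 1 base between, on both strands, in RefSeq promoters of GRCh38.p14 that run from 250 bases before to 50 bases after the start. All 10 genes had an entry, 12 in all. The matches and 15 bases on each side are shown 5′ to 3′ on the gene's strand, with the element in capitals, because complete elements of this kind are rare among promoters at large.
XBP1 (ERSE, chr22:28800588-28800636, minus strand): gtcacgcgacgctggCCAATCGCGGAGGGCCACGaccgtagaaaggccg
CRELD2 (ERSE, reverse strand, chr22:49918539-49918587, plus strand): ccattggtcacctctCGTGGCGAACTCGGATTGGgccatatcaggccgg
SDF2L1 (ERSE-II, reverse strand, chr22:21642099-21642139, plus strand): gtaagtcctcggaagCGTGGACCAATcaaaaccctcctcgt
HERPUD1 (CARE on the reverse strand, then ERSE-II, chr16:56931951-56932050, plus strand): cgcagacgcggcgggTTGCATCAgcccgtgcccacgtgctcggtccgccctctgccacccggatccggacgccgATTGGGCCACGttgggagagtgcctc
HSPA5, for comparison (ERSE, chr9:125241376-125241424, minus strand): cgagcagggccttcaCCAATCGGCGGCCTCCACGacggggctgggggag

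ERSE was found in 2 of the 10 genes and in 27 of 35116 promoters overall (0.0769%), starting 52 bases before the start of XBP1 and 80 bases before that of CRELD2. ERSE-II was found in 2 of 10 and in 19 promoters overall (0.0541%), 117 bases before the start of HERPUD1 and 188 bases before that of SDF2L1. CARE, the letters TGATGNAA through which ATF4 and C/EBP factors act, was found in HERPUD1 alone of the 10, 176 bases before its start, and in 1270 promoters overall (3.62%). The XBP1 element TGACGTGG (UPRE, 256 promoters, 0.729%) and the cyclic AMP element TGACGTCA (CRE, 649 promoters, 1.85%) were in none of the 10. Looser letters were common. CCACG alone, which every ERSE and ERSE-II contains, was in 7 of 10 and in 38.1% of all promoters. ACGTG, the core that UPRE contains, was in 4 of 10 and 21.4%. In the wider lists, ERSE was in a promoter of 7 of 34 ER chaperone genes and of 0 of 33 ATF4 targets, while CARE was in 0 of 34 and 10 of 33. A gene counts if any of its promoter entries has a match, whereas the shares of all promoters count single entries. A match is a run of letters and no measured binding.

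**Figure D1:**
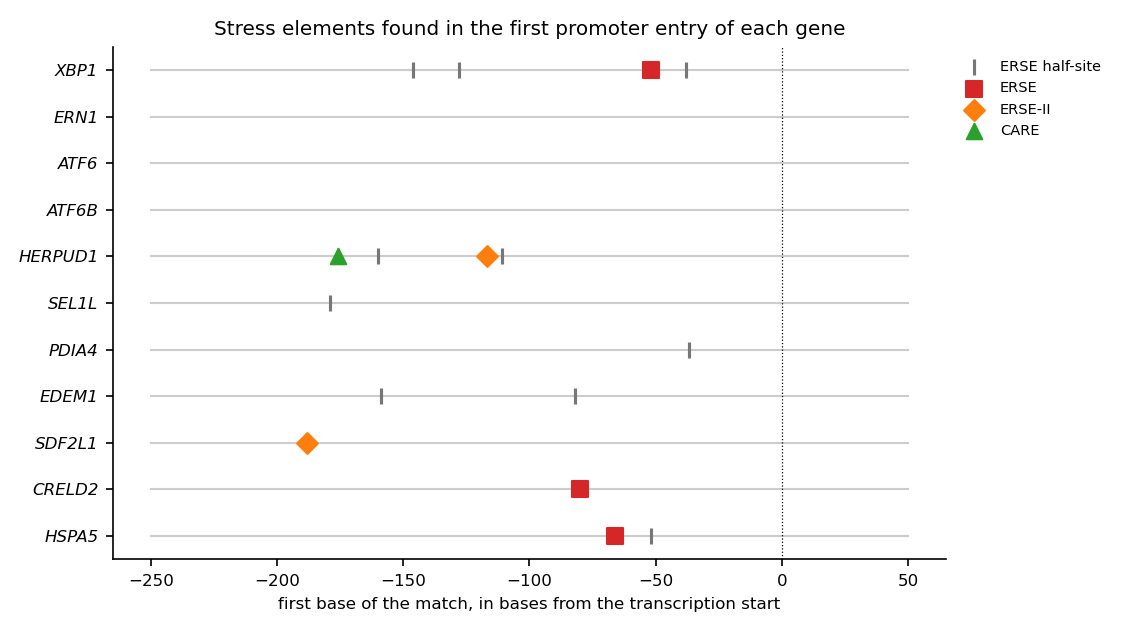
Position of stress elements in the first promoter entry of each of the 10 genes and of HSPA5, in bases from the transcription start (dotted line). Each grey line is the 300 bases searched, the squares, diamonds and triangle mark ERSE, ERSE-II and CARE, and the short bars mark CCACG, one of which lies inside each complete element. ERN1, ATF6 and ATF6B show none of these marks, and HERPUD1 is the only one of the 10 genes with both ERSE-II and CARE.

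The transcript that IRE1 cuts was read in the same way, because gene-level counts cannot show the cut. The IRE1 intron of XBP1 as annotated, 26 bases at chr22:29192116-29192141 (GRCh37, minus strand), lies inside the coding sequence and is shown in capitals with 7 bases on each side. The first letter in capitals and the first letter after them are both G. A stretch moved on by a base would leave the same spliced mRNA, so the capitals follow the annotation and do not fix the cut sites.
XBP1 intron: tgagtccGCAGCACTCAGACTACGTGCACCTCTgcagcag
Of 6 annotated XBP1 transcripts, 4 hold these bases and 1 lacks them. The counts add both forms, so the XBP1 values below are total XBP1 mRNA and say nothing of how much was spliced.

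On the TPM scale, which allows genes to be compared, XBP1 was by far the highest of the 10 genes at 594 ± 99.4 TPM (mean ± SD, n = 3) in CTRL libraries, above 98.7% of the genes tested. ATF6B followed at 155 ± 6.99 TPM, then SDF2L1 at 82.8 ± 8.11, HERPUD1 at 71.9 ± 7.38, PDIA4 at 57.1 ± 4.07 and EDEM1 at 51.7 ± 1.56. SEL1L was at 24.1 ± 4.52 TPM, CRELD2 at 17.8 ± 1.93, ATF6 at 9.23 ± 0.641 and ERN1, the lowest, at 4.01 ± 0.317. The CTRL libraries of neighbours in this order overlapped for SDF2L1 with HERPUD1 and for PDIA4 with EDEM1, and for no other neighbours. The order itself differed between the groups. In RBM5 KO, SDF2L1 was the third and CRELD2 the seventh of the 10, and in RBM5 OE they were the sixth and the eighth. SDF2L1 was at 122 ± 16.9 TPM in RBM5 KO and 36.9 ± 1.81 in RBM5 OE. The sensors ERN1 and ATF6 had the lowest levels of the 10 in each group.

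**Figure D2:**
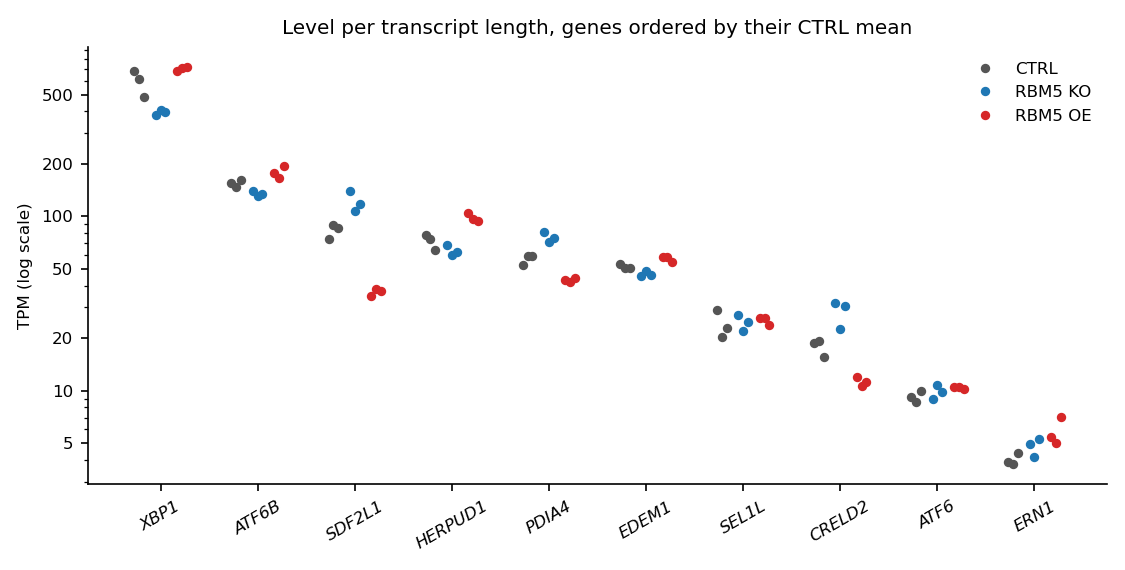
TPM of the 10 genes (log axis) in each library, ordered by the CTRL mean, with CTRL in grey, RBM5 KO in blue and RBM5 OE in red. XBP1 lies above all other genes in every library, and SDF2L1 spans the widest range on this axis, from 34.9 TPM in RBM5 OE to 141 TPM in RBM5 KO.

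Against CTRL, RBM5 KO showed 1 gene lower and 0 higher of the 10 by edgeR's quasi-likelihood test at an adjusted p under 0.05, where 1.67% and 0.837% of all 14218 genes tested were called lower and higher. The gene called was XBP1. At an unadjusted p under 0.05, 4 were higher (SEL1L, PDIA4, SDF2L1 and CRELD2) and 2 lower (XBP1 and ATF6B), where 8.13% and 8.62% of all genes were higher and lower. These 6 were also the genes whose libraries did not overlap between the groups in CPM, as held for 22.9% of all genes. DESeq2 called 3 higher (PDIA4, SDF2L1 and CRELD2) and 1 lower, beside 2.41% and 3.21% of all genes. limma-voom called 0 and 0, beside 0.485% and 1.2%. The median log2 fold change of the 10 was 0.11, beside 0.011 over all genes.

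Against the same CTRL libraries, RBM5 OE showed 3 of the 10 higher (ERN1, ATF6B and HERPUD1) and 3 lower (PDIA4, SDF2L1 and CRELD2), where 19.8% and 20.2% of all 14370 genes tested were called higher and lower. Calls were common over the whole transcriptome in this comparison, and the counts of the 10 genes are to be read against those shares. At an unadjusted p under 0.05, 24.3% of all genes were higher and 23.9% lower, and DESeq2 called 19% and 20.5%. In CPM the groups did not overlap for any of the 10, 7 higher and 3 lower, as held for 51.7% of all genes. The median log2 fold change was 0.16, beside 0.013 over all genes.

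The direct comparison of RBM5 OE with RBM5 KO, fitted over all 9 libraries, called 5 of 10 higher in RBM5 OE (XBP1, ERN1, ATF6B, HERPUD1 and EDEM1) and 3 lower (PDIA4, SDF2L1 and CRELD2), where 19.5% and 20.6% of all 14754 genes tested were called. The libraries of these 8 did not overlap between the groups in CPM, as held for 52.6% of all genes, and the median log2 fold change was 0.16 beside −0.0045. At an unadjusted p under 0.05, 23.6% of all genes were higher and 24.9% lower, and DESeq2 called 19.9% and 21.1%. ATF6 and SEL1L were not called by edgeR in any comparison as reported.

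**Figure D3:**
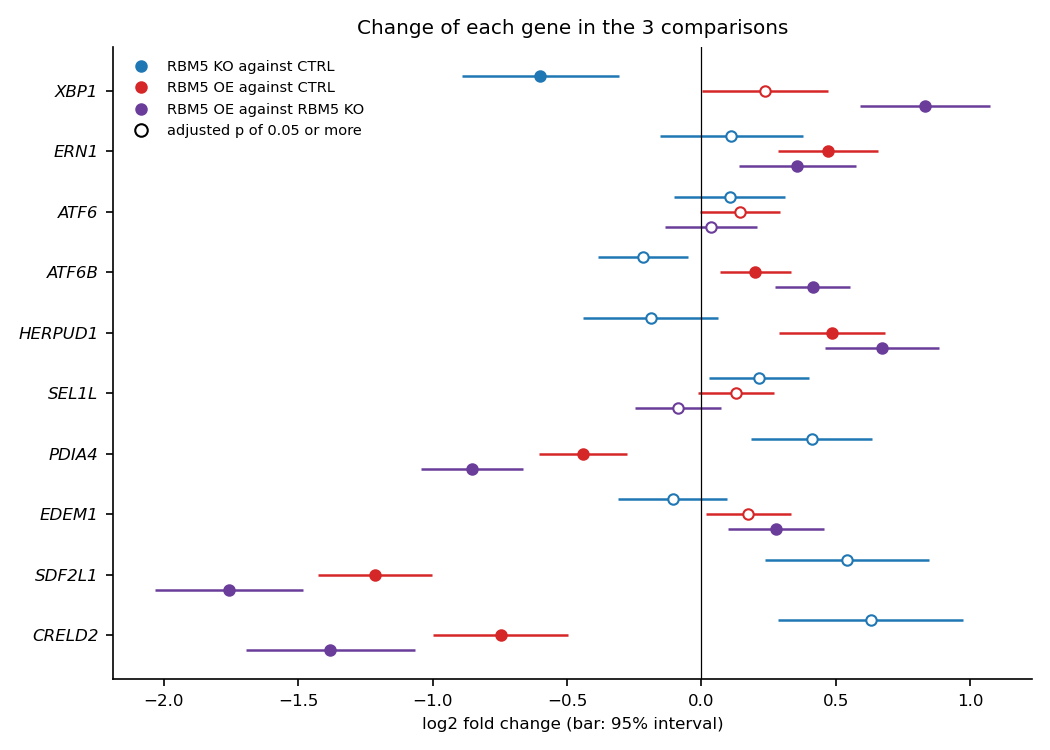
log2 fold change of each of the 10 genes with its 95% interval in RBM5 KO against CTRL (blue), RBM5 OE against CTRL (red) and RBM5 OE against RBM5 KO (purple), filled where the adjusted p is under 0.05. PDIA4, SDF2L1 and CRELD2 lie to the right of 0 in RBM5 KO and to the left in RBM5 OE, XBP1 lies on the opposite sides, and ATF6 and SEL1L stay within 0.22 of 0.

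Among the sensors and transcription factors, XBP1 (GRCh37 chr22:29190543-29196585, minus strand), whose promoter carries ERSE, is the factor made from the mRNA that IRE1 splices. XBP1 had 874, 856 and 617 CPM in CTRL, 497, 539.9 and 514 in RBM5 KO and 921, 919.5 and 918 in RBM5 OE. All RBM5 KO libraries lay below all CTRL libraries, CTRL replicate 3 was nearest to them, and the RBM5 OE libraries lay above all others within 0.158% (SD over mean) of each other. XBP1 fell in RBM5 KO to 0.660 of its CTRL level (log2 fold change −0.60, SE 0.13, adjusted p = 0.0479). In RBM5 OE it was 1.18 times CTRL (log2 fold change 0.24, SE 0.11, adjusted p = 0.103), which did not pass. Between RBM5 KO and RBM5 OE it rose to 1.78 times (log2 fold change 0.83, SE 0.11, adjusted p = 0.000156). The call in RBM5 KO was near the threshold. Without CTRL replicate 1 the log2 fold change was −0.51 with an adjusted p of 0.226, and without CTRL replicate 2 it was −0.54 with an adjusted p of 0.188. Without RBM5 KO replicate 2 it was −0.64 with an adjusted p of 0.133, and without RBM5 KO replicate 3 −0.60 with an adjusted p of 0.165. With both libraries that stood apart left out, CTRL replicate 3 among them, it was −0.72 with an adjusted p of 1.37e-06. These libraries were picked from the same data, and that fit called 6.68% of all genes lower, beside 1.67% as reported.

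ERN1 (chr17:62116440-62208179, minus strand) encodes the ER membrane kinase and RNase IRE1. ERN1 had 21.2, 19.1 and 18.7 CPM in CTRL, 19.2, 20.7 and 23.9 in RBM5 KO and 26.4, 28.1 and 27.2 in RBM5 OE. The RBM5 KO libraries overlapped CTRL, and the RBM5 OE libraries lay above both groups. ERN1 rose in RBM5 OE (log2 fold change 0.47, SE 0.085, adjusted p = 0.00119) and was not called in RBM5 KO (log2 fold change 0.11, SE 0.12, adjusted p = 0.69, 95% interval −0.16 to 0.38). Against RBM5 KO the rise was 0.36 on the log2 scale (adjusted p = 0.0137), and without RBM5 OE replicate 2 it missed the threshold (adjusted p = 0.0564). By limma on log2(TPM + 1) the rise over CTRL was 0.43 with an adjusted p of 0.0627, and that over RBM5 KO was 0.23 with an adjusted p of 0.266. ERN1 shares 432 and 452 exonic bases with a pair of lncRNA genes on the opposite strand, and the counts took no account of strand.

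ATF6 (chr1:161736088-161947364, plus strand) encodes the membrane-bound precursor of the factor that names its branch. ATF6 had 58.9, 58.6 and 62.7 CPM in CTRL, 59.6, 70.0 and 64.5 in RBM5 KO and 67.8, 66.5 and 64.5 in RBM5 OE. The RBM5 KO libraries overlapped both other groups, and the RBM5 OE libraries lay above CTRL. The 95% interval of the log2 fold change was −0.10 to 0.31 in RBM5 KO, −0.0056 to 0.29 in RBM5 OE and −0.14 to 0.20 between them, with adjusted p of 0.613, 0.116 and 0.753. With this spread between libraries a change of up to about 0.31 on the log2 scale cannot be told from none.

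ATF6B (chr6:32083041-32096030, minus strand) is the paralog of ATF6. ATF6B had 201, 207 and 202 CPM in CTRL, 179.6, 168 and 178 in RBM5 KO and 229.7, 227 and 242 in RBM5 OE. The 3 groups were fully separated, with RBM5 KO lowest and RBM5 OE highest. ATF6B rose by a small step in RBM5 OE (log2 fold change 0.20, SE 0.061, adjusted p = 0.0208), and the change in RBM5 KO did not pass (log2 fold change −0.22, SE 0.075, adjusted p = 0.185). The OE call was lost without CTRL replicate 1 and without each RBM5 OE replicate (adjusted p = 0.0712, 0.0623, 0.0661 and 0.114). Between RBM5 OE and RBM5 KO the rise was 0.41 on the log2 scale (SE 0.064, adjusted p = 0.000396). ATF6B shares 71 exonic bases with TNXB and 289 with a lncRNA gene, both on its own strand.

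**Figure D4:**
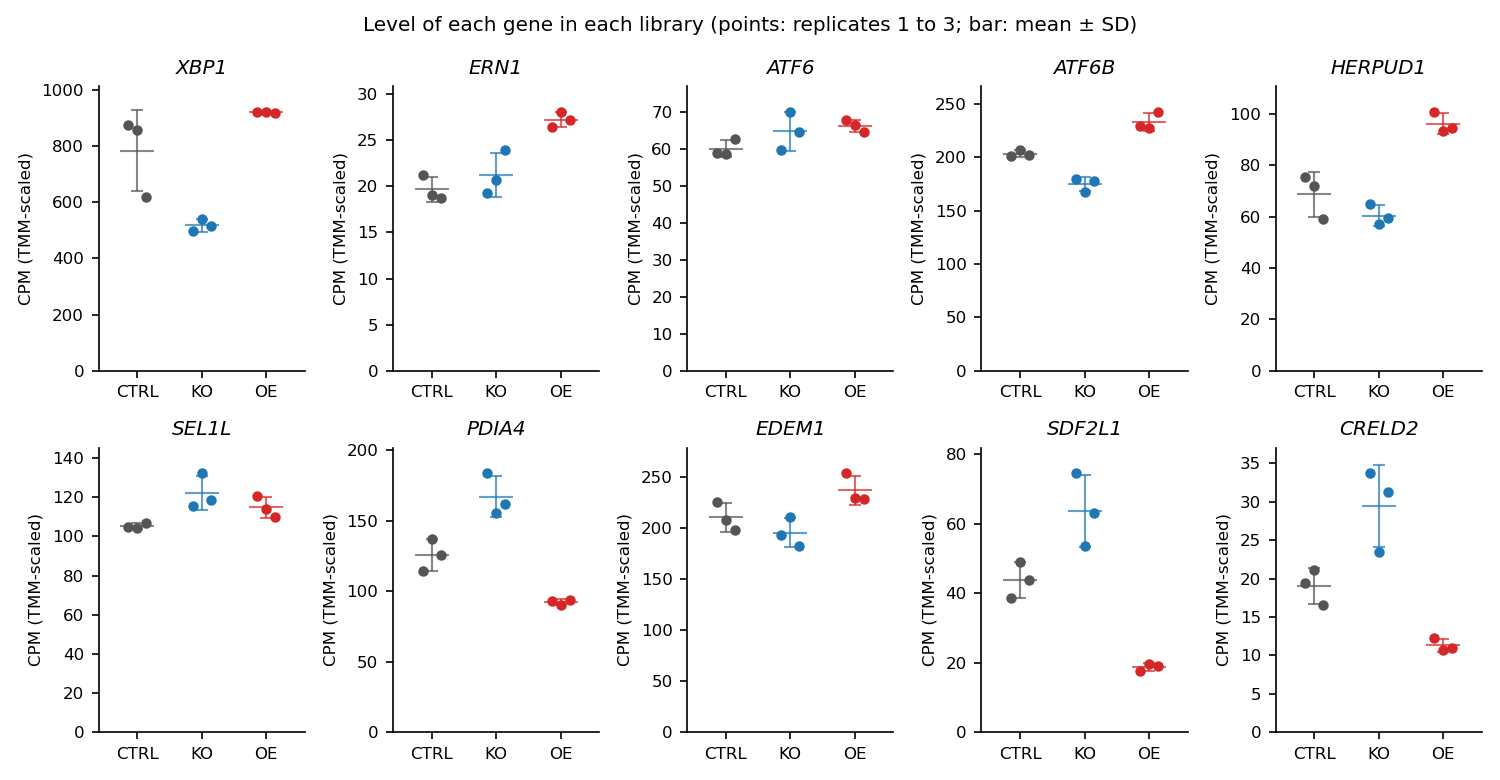
CPM of each of the 10 genes in the 3 CTRL (grey), 3 RBM5 KO (blue) and 3 RBM5 OE (red) libraries, with the mean ± SD of each group, on axes that start at 0. XBP1 is lowest in RBM5 KO, ERN1 and HERPUD1 are highest in RBM5 OE, and PDIA4, SDF2L1 and CRELD2 run from RBM5 KO (highest) over CTRL to RBM5 OE (lowest).

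The genes of ER-associated degradation, which carries misfolded protein out of the ER to the proteasome, did not share a pattern. HERPUD1 (chr16:56966054-56978776, plus strand), whose promoter carries ERSE-II and CARE, encodes an ER membrane protein that gathers the degradation complex. It is known to respond to ATF4 as well as to ATF6 and XBP1. HERPUD1 had 75.5, 71.9 and 58.9 CPM in CTRL, 64.8, 57.0 and 59.3 in RBM5 KO and 101, 93.4 and 94.4 in RBM5 OE. RBM5 OE lay above all other libraries, while CTRL and RBM5 KO overlapped through CTRL replicate 3. HERPUD1 rose in RBM5 OE to 1.40 times CTRL (log2 fold change 0.49, SE 0.090, adjusted p = 0.00137), under all 17 alternatives, and was not called in RBM5 KO (log2 fold change −0.19, SE 0.11, adjusted p = 0.439). With both libraries that stood apart left out, the change in RBM5 KO was −0.34 with an adjusted p of 0.0163, in a fit that called 6.68% of all genes lower. Between RBM5 OE and RBM5 KO the rise was 0.67 (adjusted p = 0.000253).

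SEL1L (chr14:81937891-82000197, minus strand) encodes the adaptor of the ubiquitin ligase HRD1. SEL1L had 105, 104 and 107 CPM in CTRL, 116, 132 and 119 in RBM5 KO and 121, 114 and 109.9 in RBM5 OE. In CPM both perturbed groups lay above CTRL and overlapped each other. In TPM all groups overlapped, at 20.4 to 29.1 in CTRL, 21.9 to 27.2 in RBM5 KO and 23.9 to 26.2 in RBM5 OE. Neither change passed (log2 fold change 0.21, SE 0.082, adjusted p = 0.233 in RBM5 KO and log2 fold change 0.13, SE 0.065, adjusted p = 0.139 in RBM5 OE), and the difference between the perturbed groups had a 95% interval of −0.25 to 0.071.

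EDEM1 (chr3:5229331-5261643, plus strand) encodes a protein that recognises misfolded glycoproteins by their trimmed sugars. EDEM1 had 226, 208 and 198 CPM in CTRL, 193, 211 and 183 in RBM5 KO and 254, 229 and 228 in RBM5 OE. CTRL and RBM5 KO overlapped, and RBM5 OE lay just above both. The changes against CTRL were not called (−0.11, adjusted p = 0.598 in RBM5 KO and 0.17, adjusted p = 0.0767 in RBM5 OE). EDEM1 rose between RBM5 KO and RBM5 OE (log2 fold change 0.28, SE 0.081, adjusted p = 0.0174), a call lost without RBM5 KO replicate 3 (adjusted p = 0.0721) and without RBM5 OE replicate 1 (adjusted p = 0.0796). EDEM1 shares 631 exonic bases with a lncRNA gene on the opposite strand.

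The 3 genes for folding proteins of the ER lumen all fell in RBM5 OE and had the largest log2 fold changes of the 10 between RBM5 OE and RBM5 KO. PDIA4 (chr7:148700154-148725754, minus strand), in whose promoter no complete element was found, encodes a protein disulfide isomerase. PDIA4 had 114, 137 and 126 CPM in CTRL, 183, 155 and 162 in RBM5 KO and 92.8, 90.4 and 94.0 in RBM5 OE. The groups did not overlap, with RBM5 KO highest and RBM5 OE lowest. PDIA4 fell in RBM5 OE to 0.737 of CTRL (log2 fold change −0.44, SE 0.075, adjusted p = 0.000837). In RBM5 KO it was 1.33 times CTRL without passing (log2 fold change 0.41, SE 0.10, adjusted p = 0.0704). Between the perturbed groups the log2 fold change was −0.85 (adjusted p = 2.57e-05).

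SDF2L1 (chr22:21996591-21998588, plus strand), whose promoter carries ERSE-II, encodes a lumenal partner of BiP and its co-chaperones. SDF2L1 had 38.8, 49.0 and 43.7 CPM in CTRL, 74.5, 53.7 and 63.0 in RBM5 KO and 17.7, 19.7 and 19.2 in RBM5 OE. The highest RBM5 OE library lay below the lowest CTRL library by a wide margin, and RBM5 KO replicate 2 was the RBM5 KO library nearest to CTRL. SDF2L1 fell in RBM5 OE to 0.431 of CTRL (log2 fold change −1.21, SE 0.10, adjusted p = 6.14e-06) and ranked 104th of 14370 genes by p. In RBM5 KO it was 1.45 times CTRL (log2 fold change 0.54, SE 0.14, adjusted p = 0.079). Between RBM5 OE and RBM5 KO its log2 fold change was −1.76 (SE 0.13, adjusted p = 2.65e-06).

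CRELD2 (chr22:50311815-50321188, plus strand), whose promoter carries ERSE, encodes an ER-resident protein with EGF-like domains. CRELD2 had 19.5, 21.1 and 16.5 CPM in CTRL, 33.7, 23.5 and 31.3 in RBM5 KO and 12.3, 10.7 and 10.9 in RBM5 OE. RBM5 KO replicate 2 lay just above CTRL and the other two well above it, and RBM5 OE lay below all. CRELD2 fell in RBM5 OE to 0.596 of CTRL (log2 fold change −0.75, SE 0.12, adjusted p = 0.00043). In RBM5 KO it was 1.55 times CTRL (log2 fold change 0.63, SE 0.15, adjusted p = 0.0707), which passed without RBM5 KO replicate 2 (adjusted p = 0.0455). Between RBM5 OE and RBM5 KO the log2 fold change was −1.38 (adjusted p = 2.99e-05). CRELD2 shares 168 exonic bases with ALG12 on the opposite strand.

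The libraries that stood apart touched some of these genes. They were picked from these same data, and the RBM5 KO fit without them kept CTRL replicates 1 and 2 and RBM5 KO replicates 2 and 3. CTRL replicate 3 lay below the mean of the other CTRL libraries by 0.49 (log2 CPM) for XBP1, 0.32 for HERPUD1 and 0.29 for CRELD2. RBM5 KO replicate 1 exceeded its group's remaining libraries by 0.36 for SDF2L1, 0.31 for CRELD2 and 0.21 for PDIA4. XBP1 and ERN1 were lowest of their groups in both libraries, 2 of 10 beside 21.1% of all genes, and 0 of 10 were highest in both, beside 20.1%. Without them 6.94% of all genes were called higher in RBM5 KO and 6.68% lower, and the 3 lumenal genes were called higher (log2 fold changes of 0.34 for PDIA4, 0.41 for SDF2L1 and 0.43 for CRELD2, adjusted p = 0.0196, 0.0145 and 0.0303).

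Over the 9 libraries, PDIA4, SDF2L1 and CRELD2 followed each other closely, with Pearson's r of log2 CPM of 0.974 for PDIA4 with SDF2L1, 0.969 for PDIA4 with CRELD2 and 0.960 for SDF2L1 with CRELD2. XBP1 ran against them, at −0.894, −0.839 and −0.828. These values describe 9 points that share 3 groups and their library totals. Within the groups PDIA4 with SDF2L1 was at 0.893, PDIA4 with CRELD2 at 0.559 and SDF2L1 with CRELD2 at 0.588. XBP1 was within the groups at −0.198 with PDIA4, −0.203 with SDF2L1 and 0.312 with CRELD2. ATF6 with SEL1L was at 0.801 over the libraries and 0.881 within the groups. With the other genes ATF6 was within the groups at −0.800 for CRELD2, −0.770 for ATF6B, −0.739 for SDF2L1, −0.652 for HERPUD1 and −0.589 for PDIA4. It was at −0.211 for XBP1, 0.0945 for ERN1 and 0.286 for EDEM1. Of 11630 genes compared, those most like XBP1 over the 9 libraries were ISL2 (r = 0.993), CAMTA2 (0.986) and C16orf54 (0.986). Those most like HERPUD1 were CCDC174 (r = 0.985), TATDN3 (0.984) and FLCN (0.983), and those most like ATF6 were SLC23A2 (0.964), SCYL3 (0.954) and SCRN3 (0.950).

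The wider ER genes, taken from lists by function, were read in the same fits, and each list is described by its counts, to be read against the shares of all genes given above for the same comparison and call rule. No such share is given for fits without single libraries, on the TPM scales or with the replicate block. A moved count there cannot be told from a change of calls over all genes. Values in parentheses after a gene are log2 fold changes with edgeR's adjusted p. Of 36 ER chaperones and folding enzymes tested, which include PDIA4, SDF2L1 and CRELD2, 4 rose and 0 fell in RBM5 KO (median log2 fold change 0.16). They were HSPA5 (0.53, adjusted p = 0.028), HSP90B1, the ER form of HSP90 (0.57, adjusted p = 0.0133), MANF, a secreted ER stress factor (0.52, adjusted p = 0.0352), and DNAJC3, a BiP co-chaperone (0.40, adjusted p = 0.0472), the last named after its value was seen. HSPA5 had 586, 616 and 494 CPM in CTRL, 790.5, 825 and 832 in RBM5 KO and 417, 413 and 411 in RBM5 OE, so that no groups overlapped. At an unadjusted p under 0.05, 13 of 36 were higher and 0 lower in RBM5 KO, beside 8.13% and 8.62% of all genes. The count moved with the fit, to 10 by DESeq2 (2.41% of all genes) and 11 with both libraries that stood apart left out (6.94%). It was 0 without CTRL replicate 1 or CTRL replicate 2, 1 without CTRL replicate 3 or RBM5 KO replicate 3, and 2 without RBM5 KO replicate 2. The call for HSPA5 was lost without any CTRL replicate and without RBM5 KO replicate 2 or 3, with adjusted p of 0.0592 to 0.136. MANF was lost without the same libraries (0.0795 to 0.186), and HSP90B1 without CTRL replicate 1 or 2 (0.0954 and 0.0729).

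In RBM5 OE, 19 of these 36 fell and 0 rose (median −0.21, 0 higher also at an unadjusted p under 0.05 and by DESeq2), and 15 to 19 fell under the alternatives. Among them were MANF (−0.95, adjusted p = 7.51e-05), FKBP2, an ER prolyl isomerase (−0.66, adjusted p = 0.000207), TXNDC5, a disulfide isomerase (−0.56, adjusted p = 7.41e-05), and HSPA5 (−0.45, adjusted p = 0.000954). MANF had 23.3, 27.3 and 24.5 CPM in CTRL, 38.0, 33.6 and 36.4 in RBM5 KO and 11.6, 12.3 and 14.9 in RBM5 OE. HSP90B1 fell by little (−0.18, adjusted p = 0.0409), a call lost without CTRL replicate 1 or 2 or RBM5 OE replicate 2 or 3 (adjusted p of 0.0679 to 0.164). Between RBM5 OE and RBM5 KO, 21 of 36 were lower and 0 higher (median −0.48, 20 to 23 lower under the alternatives, 0 higher by DESeq2, 1 higher at an unadjusted p under 0.05 and without RBM5 OE replicate 1), with HSPA5 at −0.98, adjusted p = 5.81e-06, HSP90B1 at −0.76, adjusted p = 2.69e-05 and MANF at −1.48, adjusted p = 3.46e-06.

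Of 31 genes of ER-associated degradation, HERPUD1, SEL1L and EDEM1 included, 0 were called in RBM5 KO by edgeR in either direction (6 higher and 0 lower at an unadjusted p under 0.05, 1 higher by DESeq2, median 0.055). In RBM5 OE, 5 rose and 4 fell (median −0.035). DERL3, a channel component of the degradation complex, rose (0.75, adjusted p = 0.00041), as did the ubiquitin-conjugating enzyme UBE2J1 (0.30, adjusted p = 0.00537), while VCP, the ATPase that pulls substrates out of the membrane, fell (−0.63, adjusted p = 9.35e-05). The genes with the smallest p in RBM5 KO, AUP1, DERL2 and UFD1L, had log2 fold changes of 0.38, 0.28 and 0.25 there without passing. In RBM5 OE, the risen were 3 without CTRL replicate 2, RBM5 OE replicate 1 or RBM5 OE replicate 2, and the fallen 2 without CTRL replicate 1 or 2 and 1 without RBM5 OE replicate 2 or 3.

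Genes that bring proteins into the ER and add their sugars, 31 in all, had 0 calls in RBM5 KO (1 higher at an unadjusted p under 0.05, 1 higher by DESeq2, median 0.027), and SEC62, SSR1 and SRP54 of the translocation machinery had log2 fold changes of 0.34, 0.17 and 0.18 there. In RBM5 OE, 10 fell and 2 rose (median −0.12, 6 to 12 fallen under the alternatives with 6 on both TPM scales, 1 risen without RBM5 OE replicate 2 or 3), among the fallers SRPRB, a subunit of the signal recognition particle receptor (−0.42, adjusted p = 0.000747, lost on both TPM scales with adjusted p of 0.104 and 0.103), and DAD1 and RPN1 of the oligosaccharyltransferase (−0.38, adjusted p = 0.0016 and −0.30, adjusted p = 0.0049). Of 17 genes of COPII vesicles, which carry cargo out of the ER, 0 were called in RBM5 KO (0 at an unadjusted p under 0.05, 0 by DESeq2, median 0.076), with SEC24A, SEC23B and SAR1B at 0.20, 0.16 and 0.15. In RBM5 OE 7 fell and 0 rose (median −0.15, 0 risen and 6 to 7 fallen under all alternatives, 0 risen at an unadjusted p under 0.05). PREB, the exchange factor that starts COPII assembly, had 104, 119 and 110.1 CPM in CTRL, 116, 103 and 112 in RBM5 KO and 55.3, 56.8 and 59.6 in RBM5 OE (log2 fold change −0.95, SE 0.072, adjusted p = 4.23e-06), and the cargo adaptors SEC24D and SEC24C fell by less (−0.69, adjusted p = 6.72e-05 and −0.60, adjusted p = 0.000121).

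Of 20 sensors and regulators of the response, XBP1, ERN1, ATF6 and ATF6B included, 1 fell (XBP1) and 0 rose in RBM5 KO (0 higher at an unadjusted p under 0.05 and by DESeq2), and 7 rose and 4 fell in RBM5 OE (medians −0.0023 and 0.15, of 20 tested of 23 listed). NFYA, a subunit of the factor NF-Y that binds CCAAT in ERSE, had 87.8, 73.7 and 84.8 CPM in CTRL, 85.1, 83.6 and 76.9 in RBM5 KO and 50.6, 52.6 and 48.7 in RBM5 OE, a fall in RBM5 OE (log2 fold change −0.69, SE 0.082, adjusted p = 7.37e-05). The other NF-Y subunits did not follow NFYA there. NFYB rose in RBM5 OE (0.39, adjusted p = 0.0174) and NFYC was not called (0.15, adjusted p = 0.154), both named after their values were seen. WFS1, an ER membrane protein that restrains ATF6, fell in RBM5 OE (−1.21, adjusted p = 0.00666) from low levels of 3.22, 3.63 and 1.85 CPM in CTRL, and TMBIM6, an inhibitor of IRE1, rose (0.22, adjusted p = 0.00908), a call lost without RBM5 OE replicate 3 (adjusted p = 0.0556). YY1, which acts with ATF6, had log2 fold changes of 0.17 in RBM5 KO and −0.022 in RBM5 OE without passing. The count of risen regulators was 2 without RBM5 OE replicate 1 and 3 without RBM5 OE replicate 2 or 3, and that of fallen ones was 2 without RBM5 OE replicate 2.

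Substrates that IRE1 is known to degrade gave little: of 6, 4 were tested, and edgeR called 0 in RBM5 KO and 0 in RBM5 OE (1 lower and 0 at an unadjusted p under 0.05, 0 and 0 by DESeq2, and 1 lower in RBM5 OE without CTRL replicate 3). BLOC1S1 had log2 fold changes of −0.094 and −0.094 with adjusted p of 0.717 and 0.361, COL6A1 of −0.37 and −0.76, and HGSNAT of −0.093 and 0.037. PDGFRB, at −1.23, adjusted p = 0.0861 in RBM5 KO and −0.070, adjusted p = 0.853 in RBM5 OE, was higher in RBM5 OE than in RBM5 KO (1.16, adjusted p = 0.00768), a call lost on both TPM scales (adjusted p = 0.126 and 0.103). In RBM5 KO it was called lower with all 9 libraries in 1 fit (adjusted p = 0.0289) and with both libraries that stood apart left out (adjusted p = 0.0461).

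The ATF4 arm was read beside these branches over the same libraries. Of 39 ATF4 targets and genes of the integrated stress response tested, 29 fell and 0 rose in RBM5 KO (median −1.12, 0 higher at an unadjusted p under 0.05 and by DESeq2). In RBM5 OE, 24 rose and 0 fell (median 0.42, 2 lower at an unadjusted p under 0.05, 1 by DESeq2), and 39 of 39 were higher in RBM5 OE than in RBM5 KO (median 1.65). The comparisons with CTRL share its libraries. In RBM5 OE, 1 gene fell without CTRL replicate 2 and 3 fell without CTRL replicate 3. Leaving out CTRL replicate 1 reduced the count in RBM5 KO to 6, CTRL replicate 2 to 11, RBM5 KO replicate 2 to 19 and RBM5 KO replicate 3 to 17. The shares of all genes called in these smaller fits are not given, so a loss particular to the list cannot be told from a general one. WARS, a tRNA synthetase, fell from 438, 389 and 367 CPM in CTRL to 143, 159 and 148 in RBM5 KO and was at 577, 597 and 598 in RBM5 OE. ASNS and ALDH1L2 fell in RBM5 KO (−2.05, adjusted p = 0.00454, and −2.23, adjusted p = 0.00247), and STC2 fell in RBM5 KO (−2.64, adjusted p = 0.00656, lost without CTRL replicate 1 with an adjusted p of 0.0576) and rose in RBM5 OE (1.93, adjusted p = 2.93e-06). In RBM5 OE, ASNS and ALDH1L2 were not called (0.21, adjusted p = 0.0892, and −0.039, adjusted p = 0.816). ASNS was called higher there with no filter (adjusted p = 0.0374) and without CTRL replicate 1 (adjusted p = 0.00598).

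ATF4 mRNA itself was at 665, 651 and 551 CPM in CTRL, 505, 393 and 407 in RBM5 KO and 698, 678 and 698 in RBM5 OE (−0.52, adjusted p = 0.0571 in RBM5 KO, and 0.15, adjusted p = 0.121 in RBM5 OE). In RBM5 KO it was called lower under 6 of 17 alternatives, among them DESeq2 (adjusted p = 0.00148), without RBM5 KO replicate 1 (−0.64 with an adjusted p of 0.00454) and with both libraries that stood apart left out (−0.72 with an adjusted p of 1.29e-06). The last of these fits called 6.68% of all genes lower. In RBM5 OE it was called higher with library totals alone (adjusted p = 0.0469). DDIT3, the pro-apoptotic factor CHOP, had 7.81, 9.21 and 5.14 CPM in CTRL, 7.28, 6.85 and 7.40 in RBM5 KO and 34.0, 32.3 and 29.6 in RBM5 OE. RBM5 KO overlapped CTRL and RBM5 OE lay far above both. The log2 fold change was −0.042, adjusted p = 0.947 in RBM5 KO, and DDIT3 rose in RBM5 OE (log2 fold change 2.12, SE 0.16, adjusted p = 4.75e-06). PPP1R15A was at 125, 133 and 64.9 CPM in CTRL, 83.1, 112 and 128 in RBM5 KO and 251, 258 and 266 in RBM5 OE, and rose in RBM5 OE (1.27, adjusted p = 0.000426). ATF5 rose in RBM5 OE as well (1.16, adjusted p = 2.16e-05) and was not called in RBM5 KO (0.18, adjusted p = 0.588). Whether these genes differed from the rest of the list was not tested.

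Among 7 genes for eIF2 alpha itself, its kinases and its phosphatase subunits, 0 were called in RBM5 KO by edgeR (0 at an unadjusted p under 0.05, 1 higher without RBM5 KO replicate 1, 0 by DESeq2), and 2 rose and 2 fell in RBM5 OE. The risen were 1 without CTRL replicate 2, RBM5 OE replicate 1 or RBM5 OE replicate 2. The fallen were 1 without CTRL replicate 1, CTRL replicate 3, RBM5 OE replicate 1 or RBM5 OE replicate 2 and 0 without RBM5 OE replicate 3. EIF2AK3, the ER-bound kinase PERK, had 17.1, 13.6 and 17.6 CPM in CTRL, 18.6, 18.9 and 16.6 in RBM5 KO and 17.8, 19.4 and 15.4 in RBM5 OE, and its 95% intervals were −0.13 to 0.45 and −0.15 to 0.40. EIF2AK4 (GCN2) fell by a small step in RBM5 OE (−0.22, adjusted p = 0.039), as did EIF2S1, which encodes eIF2 alpha (−0.29, adjusted p = 0.0138), and EIF2AK2 (PKR) rose (0.30, adjusted p = 0.0209). The EIF2AK4 call was lost without any one library but CTRL replicate 2 (adjusted p of 0.067 to 0.104), that of EIF2AK2 without CTRL replicate 2 or RBM5 OE replicate 1 or 2 (0.0545 to 0.0783), and that of EIF2S1 without RBM5 OE replicate 3 (0.063). These are mRNA levels, and the activity of a kinase, the cleavage of ATF6 and the splicing of XBP1 were not measured in these tables.

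**Figure D5:**
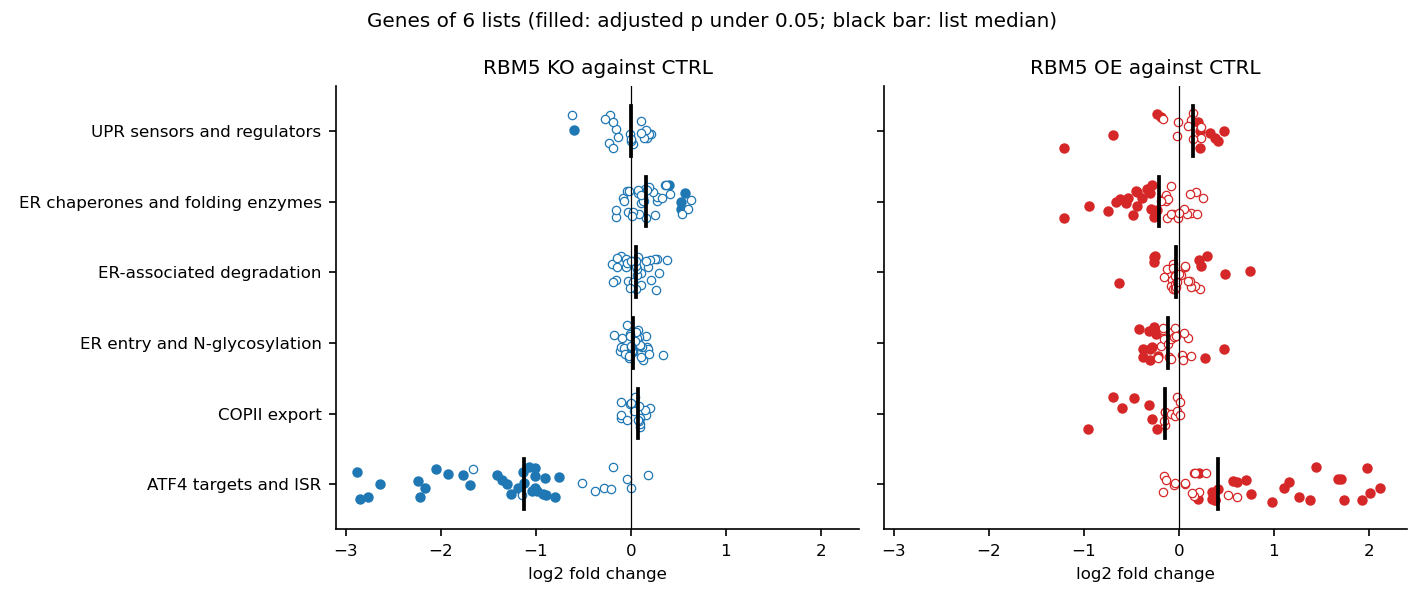
log2 fold change of each tested gene of 6 lists in RBM5 KO against CTRL (left) and RBM5 OE against CTRL (right), filled where the adjusted p is under 0.05, with a black bar at the list median. The chaperone list has 4 filled points to the right of 0 in RBM5 KO and 19 to the left in RBM5 OE, while the ATF4 list has 29 to the left and 24 to the right.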

How the data were processed

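Total RNA of 3 biological replicates per group was depleted of ribosomal RNA and sequenced in paired ends. Per the labels, the authors ran Trim Galore on the reads, mapped them by STAR 2.7.1a, marked duplicates with GATK 4.1.2.0 and quantified genes with RSEM without regard to strand on hg19 (GRCh37.p13), and deposited a table of expected counts and a table of TPM. No further normalization of these tables is stated, and the annotation behind these 2 tables is not given in the sources used here.

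The expected counts were rounded, 92 spike-in entries were left out, and genes were kept by filterByExpr and tested by the edgeR 4.0.16 quasi-likelihood test (R 4.3.3, TMM scaling, Benjamini-Hochberg over all genes tested, threshold 0.05). Each comparison with CTRL was fitted on its own 6 libraries, and RBM5 OE with RBM5 KO on all 9. SE is the log2 fold change over the square root of F, and 95% intervals use the quasi-likelihood degrees of freedom. CPM use TMM factors over all 9 libraries (0.972 to 1.03). edgeR's common biological coefficient of variation came to 0.145 for RBM5 KO with CTRL and 0.0956 for RBM5 OE with CTRL, so smaller changes could be called in the latter. Alternatives used DESeq2 1.42.0 and limma 3.58.1. The procedure was tested on simulated data.

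The genes and the 12 lists were chosen with earlier results of these data known, and 1 list of markers is not reported here. Besides the 10 genes, the text names RBM5, HSPA5, EIF2AK3, ATF4, DDIT3, up to 3 further genes of each list with the smallest p in either comparison with CTRL, and the 3 genes most like XBP1, ATF6 and HERPUD1 (Pearson's r of log2 CPM). Promoters are RefSeq's (GRCh38.p14), and gene coordinates and overlaps are from GENCODE on GRCh37. Nothing in the labels names separate cultures or batches, and p-values measure the spread between these libraries.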

Additional observations from a re-analysis of the deposited data

How the results depend on the processing

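No result changed direction with a call under the alternatives tried: other tools (DESeq2, limma-voom, and limma on log2(TPM + 1) and log2(TPM + 0.1)), other scaling (RLE, or none beyond library totals), other filters (none, or a minimum CPM of 1 in 3 libraries), other libraries in the fit, a replicate block, and the leaving out of each library and of both that stood apart. In RBM5 KO against CTRL the count of higher genes among the 10, 0 as reported, was 3 under DESeq2, with no filter, with all 9 libraries in 1 fit and with both libraries that stood apart left out, and 0 to 1 without single libraries. The count of lower genes, 1 as reported, was 0 under limma-voom, both TPM scales and the replicate block, 2 with both libraries left out, and 0 to 1 without single libraries. In RBM5 OE against CTRL the higher genes were 1 on both TPM scales, where ERN1 and ATF6B were lost, 4 with library totals (EDEM1 added) or no filter (XBP1 added), and 2 to 3 without single libraries, while the lower genes stayed at 3. In RBM5 OE against RBM5 KO they were 4 to 5 higher and 3 lower. Shares of all genes are given for DESeq2, for limma-voom in RBM5 KO and for the RBM5 KO fit without both apart libraries. Under the remaining alternatives a moved count cannot be told from a change of calls over all genes. Without single libraries the median log2 fold change of the 10 was 0.060 to 0.17 in RBM5 KO, 0.11 to 0.17 in RBM5 OE and 0.12 to 0.22 between them. Of the single values of the 10 genes, 148 of RBM5 KO kept their side of the threshold, 14 gained and 8 lost it, beside 160, 2 and 8 in RBM5 OE, and 195, 0 and 5 between them.

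Whether the replicate numbers pair the samples cannot be settled from these libraries. Same-numbered deviations from the group means correlated at −0.223, 0.0989 and −0.242 in RBM5 KO and CTRL. There CTRL replicate 3 and RBM5 KO replicate 1 stood apart, which bears on these values. The correlations were 0.0238, −0.0282 and −0.0169 in RBM5 OE and CTRL, and −0.00482, −0.0492 and 0.0938 in RBM5 OE and RBM5 KO. With the replicate block, XBP1 was at −0.58 with an adjusted p of 0.108 in RBM5 KO, 0 chaperones were called there, and the counts of the 10 genes were unchanged in both other comparisons. On both TPM scales the risen and fallen regulators in RBM5 OE were 1 and 1, beside 7 and 4, and the call of WFS1 was lost. The causes of these differences were not tested. With 3 libraries per group, small changes in RBM5 KO could not be told from none, and gene-level values cannot show XBP1 splicing, ATF6 cleavage or kinase activity.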

Other observations

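The XBP1 element TGACGTGG, absent from the promoters of the 10 genes, was found on either strand in a promoter of 5 of 34 ER chaperone genes (DNAJC10, HYOU1, KDELR3, TXNDC11 and TXNDC5), 2 of 23 ER-associated degradation genes (UBE2J1 and VCP), 4 of 26 ER entry genes and 3 of 16 COPII genes, beside 0.729% of all promoter entries and 0 of 33 ATF4 targets. ERSE was found in CALR, CANX, CRELD2, ERO1LB, HSP90B1, HSPA5 and PDIA6 among the chaperones. These are matches of letters with no measured binding. CANX and ERO1LB were not called by edgeR in RBM5 OE against CTRL, with log2 fold changes of 0.090 (adjusted p = 0.315) and −0.19 (adjusted p = 0.400). Both were named after their values were seen. The log2 fold change of CALR, a lectin chaperone, was 0.60, adjusted p = 0.0718 in RBM5 KO and −0.38, adjusted p = 0.00464 in RBM5 OE by edgeR's quasi-likelihood test, with 1019.8, 1327 and 1185 CPM in CTRL, 2187, 1509 and 1666 in RBM5 KO and 847, 924 and 931 in RBM5 OE, a gene named after its values were seen.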
